A study of Homo sapiens with 5 samples.

Results

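Proteasome subunits and regulators were followed as one set of genes in single SW480 cells recovered from zebrafish xenografts. Members were taken by gene symbol (PSMA, PSMB, PSMC, PSMD, PSME, PSMF or PSMG) among the 15266 human genes listed in all 5 deposited tables, which gave 51 genes. Of these, 46 encode subunits, assembly chaperones, activators or the inhibitor of the proteasome, and 41 of them are constitutive while 5 (PSMB8, PSMB9, PSMB10, PSME1 and PSME2) are immunoproteasome members. The other 5 are the antisense RNAs PSMA3-AS1, PSMD5-AS1, PSMD6-AS2 and PSMG3-AS1, and PSMC3IP, a recombination factor whose symbol merely starts with the same letters. All 46 proteasome genes passed the filter on low counts in the comparison of time points. SEM1 (listed as SHFM1) and ADRM1 also belong to the 19S particle but do not match the symbols, so they stand with the partner genes, and the 17 subunits of the 19S particle below are those matched by symbol. PSMA8, the testis form of an alpha subunit, was listed in 2 tables with 3 UMIs in all and was not a member.

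The proteasome is the protease that degrades proteins tagged with ubiquitin. Its 20S core is a stack of alpha and beta rings in which PSMB5, PSMB6 and PSMB7 are the catalytic subunits, and the 19S regulatory particle binds ubiquitin chains, removes them, and unfolds and threads the substrate through a ring of ATPases. Interferon induces the alternative catalytic subunits PSMB8, PSMB9 and PSMB10 and the PSME1-PSME2 activator, which change the peptides made for HLA class I molecules, and when proteasome activity falls short the transcription factor NFE2L1 raises the constitutive genes.

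SW480 is a line from a human colorectal tumor, here carrying GFP from a lentiviral vector and injected into zebrafish embryos, which at this age have innate but no adaptive immunity. GFP positive cells were sorted singly into 384-well plates at 1 day post injection (dpi; libraries 6, 7 and 8) and 4 dpi (libraries 10 and 11), with all cells untreated otherwise and with tumors of many embryos pooled. Libraries 6, 7 and 10 shared one flow cell and libraries 8 and 11 another. Nothing in the sources used here says if each plate had its own pool, so the spread between libraries may be technical. The design asks how the cells that remain at 4 dpi differ from those present at 1 dpi, and cells that changed and cells that were lost or gained cannot be told apart.

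After wells were filtered (over 2000 genes and under 25% mitochondrial UMIs), 533 cells of 1 dpi and 293 of 4 dpi remained, and a library held between 3789627 and 7503652 UMIs. The median cell had between 25938 and 36197 UMIs at 1 dpi and between 18823 and 26120 at 4 dpi. Levels below are UMIs per 1000000 human UMIs of a library (CPM), with library sizes scaled by the normalization factors of the edgeR fit. As the reads come from the 3′ end of each RNA, the levels count molecules and were not divided by gene length. Of 8 epithelial markers all but CDX1 were listed in every table, with a summed level between 4690 and 5769 CPM, while the summed level of 6 myeloid and blood markers was between 7.54 and 20.3 CPM and PTPRC was not listed in all tables. Among the 7 epithelial markers EPCAM was higher at 4 dpi (log2 change 0.25). CDH1 (-0.73), KRT18 (-0.42) and KRT19 (-0.38) were lower, and 3 were not called. Stromal markers (3 of 7 listed in all tables) summed to 4.39 ± 1.16 CPM at 1 dpi and 13.5 ± 6.57 CPM at 4 dpi. That rise was one of COL1A1, at 1.47, 4.18 and 2.73 CPM in libraries 6, 7 and 8 and 16.6 and 7.02 CPM in libraries 10 and 11. PECAM1 was between 0.78 and 1.26 CPM and VWF between 0.21 and 1.04 CPM in each library. The summed level of 15 immediate early and heat shock genes was 6210 ± 832 CPM (SD, n = 3) at 1 dpi and 4463 ± 166 CPM (SD, n = 2) at 4 dpi, with 9 of the 15 lower, 3 higher and 3 not called, and its part in the results below was not tested.

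Together the 46 proteasome genes accounted for 0.701% to 0.756% of all UMIs, depending on the library. PSMA7, an alpha subunit, was the most abundant at a mean of 493 CPM over the 5 libraries, followed by the beta subunit PSMB1 (448 CPM), the alpha subunit PSMA1 (361 CPM), the 19S ATPase PSMC2 (334 CPM) and PSMF1 (329 CPM), a protein that inhibits the 20S core in vitro. At the other end were PSMB9 (2.90 CPM), PSMB8 (6.04 CPM), PSMD4 (9.18 CPM) and PSMB10 (18.1 CPM). PSMD4 is a ubiquitin receptor of the 19S particle, and its 227 UMIs over all libraries set it far below the other non-ATPase subunits, which ranged from 48.3 CPM (PSMD3) to 242 CPM (PSMD8). Since subunits of one ring are present in equal numbers in the particle, the range within the beta ring (PSMB7 at 40.2 CPM and PSMB1 at 448 CPM) is one of RNA counts and not of the protein.

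**Figure D1:**
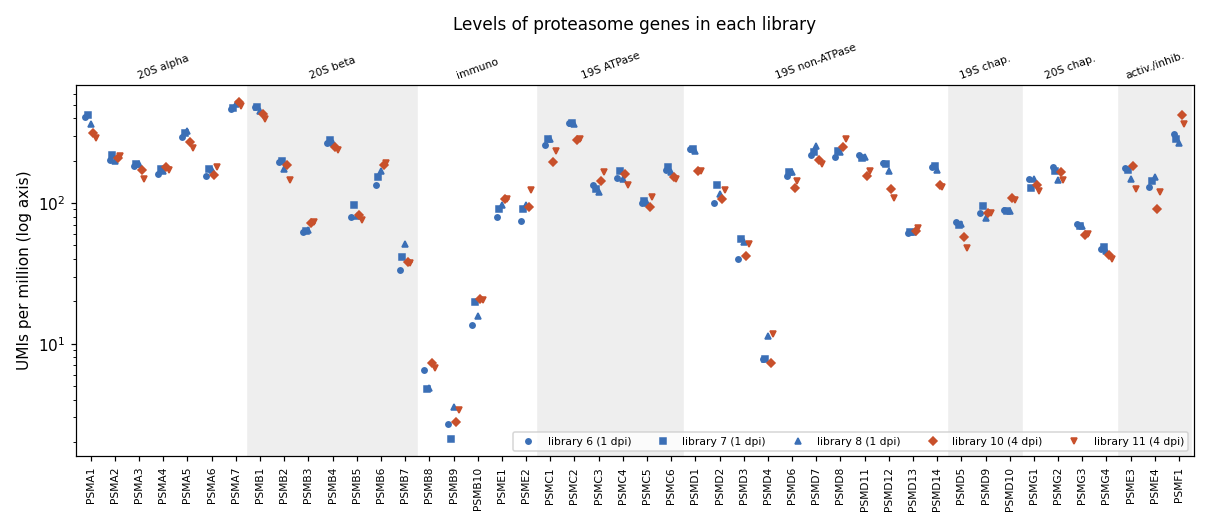
UMIs per 1000000 (log axis) of the 46 proteasome genes in each of the 5 libraries, with one point a library and shading by role (blue, 1 dpi; orange, 4 dpi). PSMB9 and PSMB8 sit lowest, below 8 CPM in every library, and PSMD4 lies apart from the other 19S subunits.

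Between time points the 2 largest falls among the 46 proteasome genes were those of 19S subunits, PSMD12 and PSMD1. In the edgeR quasi-likelihood test over 12646 genes, 4 of the 46 members were higher at 4 dpi (13.4% of all genes tested were higher) and 10 were lower (14.2% of all genes were lower). The share of higher calls among members was thus below that of all genes and the share of lower calls above it. Of the 17 subunits of the 19S particle 6 fell and 1 rose, of the 14 constitutive 20S subunits 2 fell and 1 rose, and of the 5 immunoproteasome members none was called in either direction, with 2 higher at an unadjusted p under 0.05 and none called by DESeq2. The median log2 change was -0.20 over the 19S subunits, -0.12 over the constitutive 20S core and 0.33 over the immunoproteasome members, against 0.00 over all genes tested. In low-cycling cells alone 3 members fell and 1 rose of 44 tested, where 3.87% of all genes fell and 3.89% rose. With cells thinned to 5000 UMIs 4 fell and 3 rose of 43, where 6.29% of all genes fell and 7.30% rose, so that the higher calls were near the background.

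**Figure D2:**
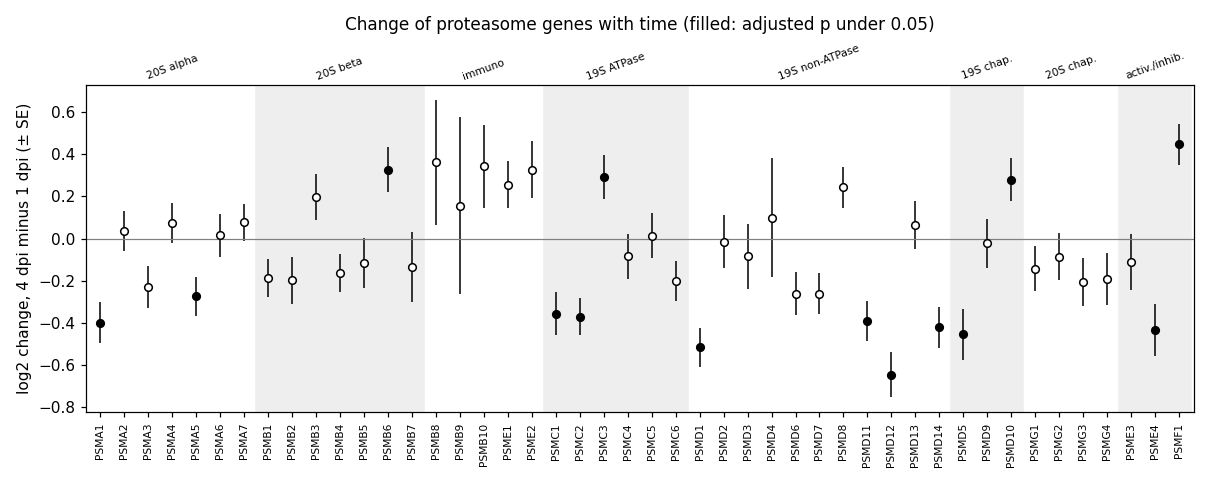
Log2 change from 1 to 4 dpi (vertical axis, ± SE of the edgeR fit over 3 and 2 libraries) of each proteasome gene, ordered by role, with filled points for an adjusted p under 0.05. The largest fall is that of PSMD12 (-0.64) and the largest rise that of PSMF1 (0.45), and the 5 immunoproteasome members all lie above 0 without passing the test.

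Among the non-ATPase subunits of the 19S particle, PSMD12, a subunit of its lid, had 194, 191 and 168 CPM in libraries 6, 7 and 8 and 126 and 109 CPM in libraries 10 and 11. No library of 4 dpi reached the lowest of 1 dpi, and the log2 change was -0.64 ± 0.11 (SE, adjusted p = 0.00047). PSMD1, the large scaffold subunit of the base, was at 241, 244 and 236 CPM at 1 dpi and at 168 and 168 CPM at 4 dpi, a log2 change of -0.52 ± 0.09 (adjusted p = 0.00081). For PSMD14, the enzyme that cuts ubiquitin chains off the substrate, the libraries held 180, 183 and 172 CPM at 1 dpi and 135 and 131 CPM at 4 dpi (log2 change -0.42, adjusted p = 0.0045). PSMD11, another lid subunit, fell from 213 ± 5.9 to 163 ± 10.6 CPM (log2 change -0.39, adjusted p = 0.0068). The groups of libraries did not overlap for any of these 4 genes. Of the other 7, PSMD6 and PSMD7 were at -0.26 each and PSMD8 at 0.24, none of which passed the test, and PSMD4 had too few UMIs for a useful interval (0.10 ± 0.28).

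Of the 6 ATPases, which form the ring that unfolds the substrate, 2 fell and 1 rose. PSMC2 was at 370, 368 and 365 CPM at 1 dpi and at 282 and 287 CPM at 4 dpi, with SDs of 2.2 and 4.2 CPM (log2 change -0.37, adjusted p = 0.0057). PSMC1 fell from 277 ± 15 to 216 ± 27.9 CPM (log2 change -0.36, adjusted p = 0.017), and this gene has 13 pseudogenes in the RefSeq table, with which reads could have been shared. Other members have pseudogenes there too, among them PSME2 with 6 and PSMD7 and PSMA6 with 4 each. PSMC3 went the other way, from 133, 125 and 119 CPM to 144 and 165 CPM (log2 change 0.29, adjusted p = 0.045). PSMC4, PSMC5 and PSMC6 were at -0.08, 0.01 and -0.20. Summed over the 17 subunits matched by symbol, the 19S particle went from 2875 ± 66 CPM to 2470 ± 81 CPM, a ratio of 0.859. Outside that sum SEM1 (SHFM1) was at 412 ± 12.6 CPM at 1 dpi and 407 ± 38.4 CPM at 4 dpi, and ADRM1 had a log2 change of -0.29 ± 0.13 (SE), and neither passed the test.

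In the 20S core the summed level of the 14 constitutive subunits was 3203 ± 77 CPM at 1 dpi and 2993 ± 124 CPM at 4 dpi, a ratio of 0.934. The alpha subunit PSMA1 fell from 412, 423 and 363 CPM to 316 and 291 CPM (log2 change -0.40, adjusted p = 0.0067), and PSMA5 from 313 ± 14.6 to 259 ± 18.1 CPM (log2 change -0.27, adjusted p = 0.040). The catalytic subunit PSMB6, whose active site cuts after acidic residues, was at 134, 154 and 169 CPM at 1 dpi and at 188 and 193 CPM at 4 dpi (log2 change 0.33, adjusted p = 0.031). Each 4 dpi library was thus above each 1 dpi library for PSMB6 (27.0% of all genes tested) and below for PSMA1 and PSMA5 (27.6% of all genes). PSMB5 and PSMB7, which carry the other catalytic sites, were at -0.12 ± 0.12 and -0.13 ± 0.17, and their libraries overlapped. The most and least abundant alpha subunits, PSMA7 (0.08) and PSMA6 (0.02), and the most abundant beta subunit, PSMB1 (-0.19), did not pass the test either.

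Assembly chaperones and regulators changed in both directions. PSMD5, a chaperone of the 19S base, was at 73.6, 69.7 and 71.4 CPM at 1 dpi and at 56.9 and 47.6 CPM at 4 dpi (log2 change -0.45, adjusted p = 0.011), whereas PSMD10, another base chaperone also known as gankyrin, was at 88.9, 88.3 and 87.6 CPM and at 109 and 106 CPM (log2 change 0.28, adjusted p = 0.0497). The call of PSMD10 stood at the threshold and was lost when any 1 library was left out (log2 change between 0.26 and 0.29). All 4 chaperones of the 20S core (PSMG1 to PSMG4) had negative changes, between -0.21 and -0.09, from PSMG2 (165 ± 18.3 and 156 ± 13.4 CPM) as the most abundant to PSMG4 (47.0 ± 1.5 and 41.2 ± 2.0 CPM) as the least, with none called, none at an unadjusted p under 0.05 and none by DESeq2. PSME4, an ATP-independent activator of the core, fell from 130, 145 and 153 CPM to 90.9 and 120 CPM (log2 change -0.43, adjusted p = 0.016). PSMF1 rose from 308, 286 and 268 CPM to 420 and 364 CPM (log2 change 0.45 ± 0.10, adjusted p = 0.0032), the largest rise of any member that passed the test. PSME3, a nuclear activator, was at -0.11 ± 0.13, and its 4 dpi libraries differed most among the 3 genes of this group (182 and 126 CPM).

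Complete separation of the libraries was counted without a test. In 10 of the 46 genes both 4 dpi libraries lay above all 3 of 1 dpi (27.0% of all genes tested), and in 18 both lay below them (27.6% of all genes). The 18 genes with lower libraries held 9 of the 17 subunits of the 19S particle and 5 of the 14 of the constitutive 20S core. Leaving out one library at a time ended the call at least once for 9 of the 14 genes, while PSMC2, PSMD1, PSMD12, PSMD14 and PSMF1 stayed past the threshold in all 5 of these fits. The log2 change without library 11 was -0.34 for PSMA1, -0.33 for PSMD5, 0.19 for PSMC3, -0.21 for PSMA5 and 0.30 for PSMB6, none of them called. Without library 10 it was -0.23 for PSMC1, -0.33 for PSMD11, -0.24 for PSME4 and 0.35 for PSMB6, again none called. PSMA5 (-0.26), PSMB6 (0.34), PSMC1 (-0.33) and PSMC3 (0.29) also lost the call without library 7, PSMA5 (-0.24), PSMC1 (-0.33), PSMC3 (0.26) and PSME4 (-0.38) without library 8, and PSMB6 (0.24) without library 6. In the other direction PSMD7 (-0.30) was called without library 6, and PSMB2 (-0.38), PSMD8 (0.34), PSME2 (0.51) and PSME3 (-0.40) without library 10.

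The immunoproteasome members were rare for the catalytic subunits and moderate for the activator. PSMB8 was at 6.55, 4.75 and 4.83 CPM at 1 dpi and at 7.30 and 6.76 CPM at 4 dpi, from 152 UMIs in all, so that its change of 0.36 ± 0.30 on the log2 scale was not detectable at this depth (adjusted p = 0.39). PSMB9 had 72 UMIs in all and between 2.09 and 3.57 CPM in each library (log2 change 0.16 ± 0.42). Among the 6 myeloid and blood markers listed, CD14 was between 0.25 and 3.15 CPM, CD68 between 1.56 and 5.31 CPM and HBA1, the highest of them, between 2.60 and 9.45 CPM. HBA1 itself was lower at 4 dpi (log2 change -1.16, adjusted p = 0.040). PSMB8 was below HBA1 in libraries 7 and 8 (8.35 and 9.45 CPM for HBA1) and above it in libraries 6, 10 and 11 (4.41, 3.78 and 2.60 CPM for HBA1). PSMB9 was below HBA1 in all libraries but library 11 (3.38 CPM for PSMB9). How much of either count is background was not tested. PSMB10 was at 13.6, 19.7 and 15.7 CPM and at 20.9 and 20.3 CPM (log2 change 0.34 ± 0.20, adjusted p = 0.21). The activator subunits lay higher, PSME1 at 80.1, 91.1 and 97.4 CPM and then 106 and 107 CPM (0.26 ± 0.11, adjusted p = 0.099), and PSME2 at 74.0, 90.4 and 96.6 CPM and then 94.2 and 123 CPM (0.33 ± 0.13, adjusted p = 0.082). The libraries of both time points overlapped for PSMB9 and PSME2. For PSMB8, PSMB10 and PSME1 both 4 dpi libraries lay above all 3 of 1 dpi, as they did for 27.0% of all genes tested. Without library 10 the call of PSME2 was reached (log2 change 0.51, adjusted p = 0.016).

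Each catalytic subunit of the immunoproteasome takes the place of a constitutive one, PSMB8 that of PSMB5, PSMB9 that of PSMB6 and PSMB10 that of PSMB7, so their UMIs were also set against each other. PSMB8 made up 7.60%, 4.70% and 5.64% of the UMIs of its pair at 1 dpi and 8.12% and 8.25% at 4 dpi. For PSMB9 the shares were 1.96%, 1.34% and 2.07% at 1 dpi and 1.46% and 1.72% at 4 dpi. PSMB10 made up 29.1%, 32.4% and 23.5% of its pair at 1 dpi and 35.5% and 35.1% at 4 dpi. The 3 pairs thus differed far more from each other than from 1 to 4 dpi. On the log2 scale the ratio differed by 0.52 for PSMB8 to PSMB5 (exact permutation p = 0.2), by -0.14 for PSMB9 to PSMB6 (exact permutation p = 0.6) and by 0.47 for PSMB10 to PSMB7 (exact permutation p = 0.2). With 3 against 2 libraries there are 10 splits, and the smallest two-sided p they allow is 0.1, so none of the 3 comparisons could have passed a threshold of 0.05.

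**Figure D3:**
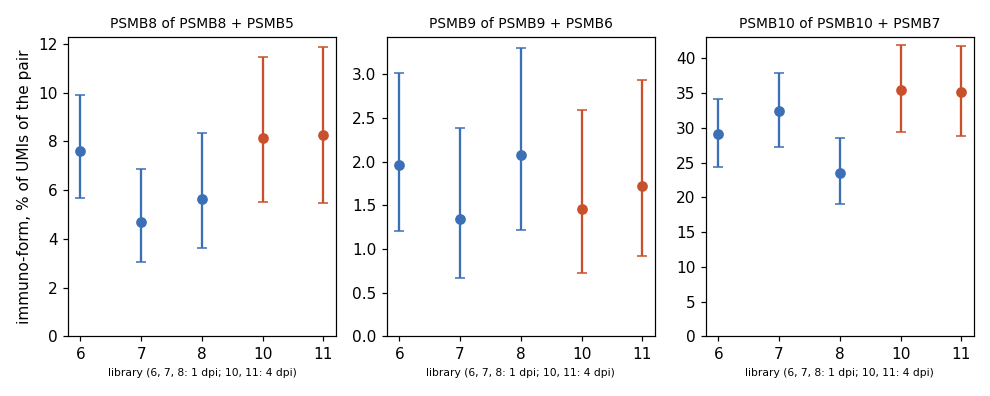
Share of the immunoproteasome subunit among the UMIs of each catalytic pair (vertical axes, percent, scaled separately and starting at 0) in the 5 libraries, with exact (Clopper-Pearson) 95% binomial intervals that cover counting error only. PSMB9 stays at or below 2.07% and PSMB10 at or above 23.5% in every library.

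Promoter sequence was read for the members whose induction is known to run through named elements. Windows from 250 bases before to 50 after the start site were in the RefSeq table (GRCh38.p14) for 40 of the 46 proteasome genes, including all 5 immunoproteasome members. The letters AANNGAAA, the core bound by interferon regulatory factors, were on either strand in the windows of 4 of the 5 immunoproteasome members (PSMB8, PSMB10, PSME1 and PSME2) and of 9 of the 35 constitutive genes, against 26.7% of all genes in the table. In all 4 the match nearest the start site read AAGCGAAA on one strand or the other, a run held by 0.597% of all genes in the table and by 1 constitutive member, the core chaperone PSMG4, and counted after the matches had been seen. PSMB9 had no match in its window. The windows of the 4 genes with a match are shown with the matching letters in capitals:
PSMB8 (chr6:32844033-32844062, minus strand): cgatctgtggcTTTCGCTTtcacttcctcc
PSMB10 (chr16:67936851-67936880, minus strand): ggtaaaggcgaAAGCGAAAgcaggaagtac
PSME1 (chr14:24136188-24136217, plus strand): cgccctaccgcTTTCGCTTtcccttcgcgg
PSME2 (chr14:24146618-24146647, minus strand): ctggggagtgaAAGCGAAAgcccgggcgac

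PSMB8 and PSMB9 are neighbors on chromosome 6, and PSME1 (chr14:24136163-24138967) and PSME2 (chr14:24143362-24147570) are neighbors on chromosome 14. The letters TGACNNNGC, the core of the antioxidant response element that NFE2L1 and its relatives bind, were in the windows of 15 of the 40 genes (37.5%, against 16.1% of all genes in the table). These were 12 of the 35 constitutive genes (34.3%) and 3 of the 5 immunoproteasome members, PSMB9, PSME1 and PSME2. Among the 15 were 4 of the 10 genes that fell with time, a share like that of the members as a whole. Those 4 are shown so that the letters can be seen in members that fell:
PSMD1 (chr2:231056887-231056916, plus strand): ggcggcctgaggaggcgacTGACTGAGCag
PSMD12 (chr17:67366723-67366752, minus strand): agacaaaaccTGACGCTGCaggctggagtg
PSMD5 (chr9:120843037-120843066, minus strand): tggctacagtTGACACGGCcctaacggagg
PSME4 (chr2:53971008-53971037, minus strand): cccggcggctGCAGCGTCAccagcagagcc

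Further motifs counted in the same windows were CGGAAG, the core bound by ETS factors, in 24 of the 40 genes (22.6% of all genes), and the CCAAT box in 19 of the 40 (39.7% of all genes). A match shows only that the letters are there, and binding was not measured.

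Genes that act with the proteasome were taken as 3 lists. Of 21 proteins that bind or regulate the particle 20 were tested, of which none rose (13.4% of all genes rose) and 4 fell (14.2% of all genes fell). Those 4 were the ubiquitin hydrolase USP14 (-0.38), the proteasome-bound ZFAND5 (-0.39), the shuttle factor UBQLN1 (-0.37) and the thioredoxin-like TXNL1 (-0.33). NFE2L1 itself was at 59.3, 67.6 and 68.0 CPM at 1 dpi and at 58.9 and 49.9 CPM at 4 dpi and was not called. Of 6 genes for ubiquitin and its activation, UBA6 was at 88.4, 88.1 and 87.8 CPM at 1 dpi and at 56.9 and 54.6 CPM at 4 dpi (log2 change -0.66, adjusted p = 0.00049), while UBA1, the main activating enzyme, rose by 0.27 (adjusted p = 0.048). In the list of interferon-induced genes of antigen processing, HLA-C rose from 231, 232 and 201 CPM to 376 and 333 CPM (log2 change 0.68, adjusted p = 0.00015), and TAPBP, a chaperone that loads peptide on class I molecules, from 46.3, 41.2 and 45.6 to 69.0 and 66.6 CPM (0.61, adjusted p = 0.0014). HLA-B (0.58) and B2M (0.42) rose as well, and the factor IRF1 fell (-0.46, adjusted p = 0.017). HLA genes share near-identical sequence, so the split of UMIs between HLA-B and HLA-C is uncertain.

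Cells that differ in the cell cycle were compared next, since time points can differ in their share of dividing cells. The cells of each library were ranked by the share of their UMIs in 94 S and G2/M phase genes and cut into 3 classes, and the highest (274 cells) and lowest (274 cells) were compared within libraries without those genes. Median depth per library was between 25210 and 42100 UMIs in the highest class and between 14860 and 29880 in the lowest. Mitochondrial medians were lower in the highest class in libraries 6, 7 and 8 (11.8%, 11.3% and 11.0%, against 14.6%, 12.5% and 11.5%) and higher in libraries 10 and 11 (15.2% and 15.5%, against 11.8% and 9.92%). Of the 15 immediate early and heat shock genes 5 were higher in the cycling class, EGR1 (0.89), HSPH1 (0.61), IER2 (0.56), HSPA8 (0.55) and DNAJB1 (0.51), and of 7 epithelial markers KRT8 (-0.31) and KRT19 (-0.64) were lower. The part of these genes in the differences was not tested. Of the 44 members tested 5 were higher in the cycling class (9.40% of all 10856 genes were higher) and 1 was lower (8.35% of all genes). The members' shares were near or below the background, and DESeq2 called none of them in either direction.

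PSMB5, which carries the chymotrypsin-like site, had 62.5, 74.8, 68.6, 82.7 and 69.0 CPM in the low class of libraries 6, 7, 8, 10 and 11 and 95.9, 113, 97.1, 88.1 and 85.5 CPM in the cycling class. It was higher in 5 of 5 libraries (log2 0.43 ± 0.12, adjusted p = 0.012). The 20S chaperone PSMG1 was likewise higher in 5 of 5 libraries (0.37, adjusted p = 0.015), as were PSMC3 (0.35, adjusted p = 0.023) and PSMD2 (0.34, adjusted p = 0.042), and PSMD1 was higher in 4 of 5 (0.37, adjusted p = 0.034). PSMF1 was lower in 5 of 5 (-0.27, adjusted p = 0.048). Each of these 6 calls was lost without at least 1 library, and the higher calls numbered 2 without library 6, 8 or 10 and 3 without library 7 or 11. PSMB5, for instance, was at 0.38 and 0.39 without libraries 6 and 7, PSMG1 at 0.34 without library 7 and PSMC3 at 0.28 without library 10. None of the 6 calls held when cells were thinned to 5000 UMIs each or when the mitochondrial maximum was 15%. Among regulators, the deubiquitinase UCHL5 (0.57, adjusted p = 0.0028) and USP14 (0.30, adjusted p = 0.035) rose in cycling cells and NFE2L1 fell (-0.44, adjusted p = 0.022). Lower as well were RPS27A (-0.29), which encodes a ubiquitin fusion, and HLA-C (-0.33).

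To see how far other proteasome genes go with the core within a time point, cells of each library were ranked by the share of their UMIs outside mitochondrial genes that fell on the 14 constitutive 20S genes, and the highest of 3 classes (20S-high, 274 cells) was set against the lowest (20S-low, 274 cells) without those genes. The class is a range of a score and not a kind of cell, as 237 cells lay within 10% of the upper limit and 220 within 10% of the lower. The score is a share of a common total, which links all genes of a cell, and the part of that link was not tested. Of the 31 members tested, 21 were higher in 20S-high cells (15.6% of all 11075 genes were higher) and 0 were lower (15.2% of all genes), with 0 lower at an unadjusted p under 0.05 and 0 lower by DESeq2, which called 19 higher. The median log2 difference was 0.51 over these 31 genes and -0.04 over all genes tested. Of the 31, 23 were higher in 5 of 5 libraries, but the share of all genes that were so was not counted. When cells were thinned to 5000 UMIs before ranking, 2 of 28 members (PSMC4 and PSMD8) were called higher, where 1.82% of all genes were, and the median was 0.30 over the members and -0.02 over all genes tested. By role, 5 of 6 ATPases, 7 of 11 non-ATPase subunits, 1 of 3 base chaperones, 3 of 4 core chaperones, 3 of 4 immunoproteasome members and 2 of 3 other regulators were higher.

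PSMB10 had 7.17, 11.3, 4.46, 13.1 and 12.6 CPM in 20S-low cells of libraries 6, 7, 8, 10 and 11 and 26.9, 38.3, 32.3, 25.1 and 14.7 CPM in 20S-high cells (log2 1.57 ± 0.29, adjusted p = 0.0016). Its partner in the induced set, PSME2, had 50.5, 64.3, 56.9, 69.2 and 107 CPM in 20S-low and 116, 128, 143, 136 and 152 CPM in 20S-high cells (1.00 ± 0.14, adjusted p = 0.00031). Both were higher in 5 of 5 libraries, and the differences were largest in the libraries of 1 dpi. Among the 17 subunits of the 19S particle matched by symbol PSMC4 (0.74), PSMD2 (0.71), PSMD8 (0.66) and PSMC1 (0.64) had the largest differences, with adjusted p between 0.00072 and 0.0018. The core chaperone PSMG4 was at 0.75 (adjusted p = 0.0059), and PSME3 at 0.73 (adjusted p = 0.0018). Not called were PSMB8, PSMC6, PSMD1, PSMD4, PSMD5, PSMD9, PSMD11, PSMD13, PSMG3 and PSME4, of which only PSMD5 (-0.14) and PSME4 (-0.30) had negative values. Single libraries decided the calls of PSME1 (0.54 without library 6, 0.55 without library 8), PSMD3 (0.52, 0.50 and 0.40 without libraries 6, 8 and 11) and PSMD12 (between 0.25 and 0.34, lost without any of the 5), while PSME4 was called lower without library 10 (-0.42) or 11 (-0.42) and PSMD11 higher without library 10 (0.32).

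**Figure D4:**
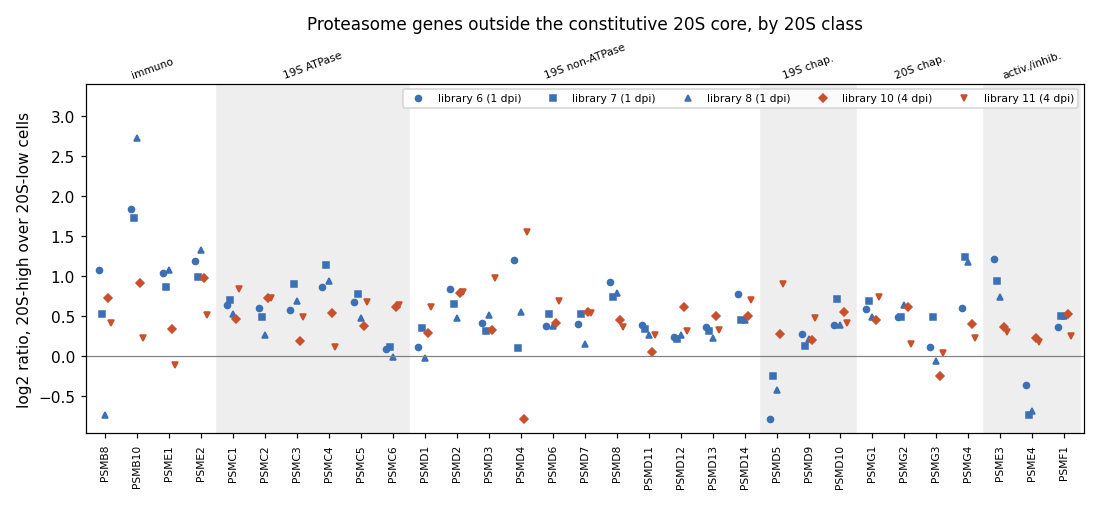
Log2 ratio of 20S-high over 20S-low cells (vertical axis) for the 31 tested proteasome genes outside the constitutive core, with one point a library (blue, 1 dpi; orange, 4 dpi). Most points lie above 0, and PSMD5 and PSME4 lie below 0 in the 3 libraries of 1 dpi and above 0 in both of 4 dpi.

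Of the partners, POMP, the chaperone that brings core precursors together, had between 146 and 186 CPM in 20S-low and between 285 and 354 CPM in 20S-high cells (log2 0.91, adjusted p = 0.00018). SEM1, a small 19S subunit listed under its older symbol SHFM1 and not matched by the symbol rule, was at 0.76 (adjusted p = 0.00031), the segregase VCP at 0.49, ADRM1, a ubiquitin receptor, at 0.38, and USP14 at 0.33, while ZFAND5 was lower (-0.37). Among ubiquitin genes RPS27A (0.50) and UBB (0.49) were higher and UBA6 lower (-0.43), and in the antigen processing list B2M was higher (0.47) and IRF1 lower (-1.02). Other features moved with the class. Of the 15 immediate early and heat shock genes 10 were lower in 20S-high cells, led by NR4A1 (-2.93), and 1, HSPA8 (0.74), was higher. Of 7 epithelial markers EPCAM (0.42), KRT8 (0.49), KRT18 (0.49) and KRT19 (0.44) were higher and CDH1 (-1.34) was lower, and the stromal marker COL1A1 was lower (-1.32). Mitochondrial shares had medians per library between 8.63% and 13.6% in 20S-low and between 11.5% and 13.5% in 20S-high cells, and depth medians were between 17260 and 34770 UMIs and between 20260 and 32330 UMIs. The part of these in the differences was not tested.

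Within the libraries of 1 dpi 22 of 31 members were higher in 20S-high cells (22.6% of all genes) and 2 were lower (22.9% of all genes), namely PSMD5 (-0.51) and PSME4 (-0.58). With only the 2 libraries of 4 dpi 3 of 30 were higher (1.35% of all genes), which were PSMC1 (0.63), PSMC2 (0.70) and PSMD2 (0.77). These are close to the values at 1 dpi for PSMC1 (0.64) and PSMD2 (0.67). A test of the difference itself, added after seeing the data, called 5 of 31 members (6.85% of all genes) in the 20S-high comparison and none of 44 in the cycling comparison (0.737% of all genes), where 4 had an unadjusted p under 0.05 and the lowest adjusted p was 0.21.

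Cell by cell the link was weak. With each cell thinned to 5000 UMIs, which left 526 cells of 1 dpi and 289 of 4 dpi, the core had a mean between 14.4 and 16.3 UMIs a cell and the 19S subunits between 11.2 and 14.2, and the variance of the core was between 1.77 and 2.01 times its mean. Across cells of a library, which share depth and chemistry, Spearman's rho between the core and the 19S particle was 0.16, 0.19 and 0.13 in libraries 6, 7 and 8 (226, 140 and 160 cells) and 0.28 and 0.33 in libraries 10 and 11 (130 and 159 cells). For the core and the immunoproteasome members it was between 0.02 and 0.14, and between the core and ribosomal protein genes it was 0.36, 0.32 and 0.22 at 1 dpi and -0.02 and -0.01 at 4 dpi. Between the core and the mitochondrial share it was 0.13, 0.03 and 0.16 at 1 dpi and -0.33 and -0.21 at 4 dpi. The 5000 UMIs included mitochondrial ones, and the part of that share in the other correlations was not tested. At such low counts these values describe the cells and set no limit on how closely the RNAs go together.

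**Figure D5:**
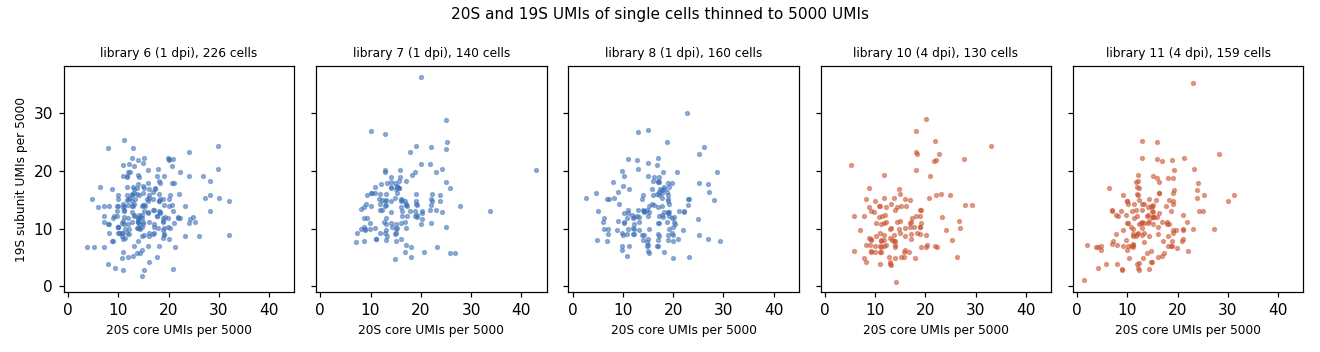
UMIs of the 14 constitutive 20S genes (horizontal) and the 17 subunits of the 19S particle (vertical) in single cells thinned to 5000 UMIs, one panel a library and one point a cell, with a small random shift so that points do not hide each other. The clouds are broad in every library, with Spearman's rho between 0.13 and 0.33.

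The antisense RNAs were counted apart. PSMD6-AS2, which overlaps PSMD6 on chromosome 3, was at 14.2, 9.87 and 10.3 CPM at 1 dpi and at 2.52 and 5.46 CPM at 4 dpi (log2 change -1.54 ± 0.33, adjusted p = 0.0031, from 238 UMIs), and it was lower in 20S-high cells as well (-1.26, adjusted p = 0.0087), as was PSMD5-AS1 (-0.78, adjusted p = 0.010). PSMA3-AS1 (0.08), PSMD5-AS1 (-0.01) and PSMG3-AS1 (0.60) were not called between time points. The strand setting of the counting is not known here, so reads of a gene and its antisense partner may not be told apart. PSMC3IP had 15 UMIs in all and was not tested.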

How the data were processed

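The authors sequenced SORT-seq libraries (CEL-Seq2 chemistry with UMIs, paired reads) of sorted single cells and deposited one table per plate of UMI counts per gene and well. The submitters' processing notes name BWA and hg38. Versions, annotation and strand setting could not be found in the labels or methods. Depth and levels are given in the report.

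Wells and genes were filtered as in the authors' code: genes listed in all 5 tables and seen in at least 10 wells, wells of over 2000 genes and under 25% mitochondrial UMIs, which left 826 cells. ERCC spike-ins counted in that filter and were then dropped. Cells were sorted singly and doublets were not looked for. All plates use the same 384 well barcodes, and 15 well numbers passed in all 5. Counts were summed per library, or per library and class of cells, since cells are not replicates.

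Sums were tested across all genes with edgeR 4.0.16 (R 4.3.3, TMM, filterByExpr, quasi-likelihood test, two-sided, Benjamini-Hochberg, threshold 0.05), with the library as a block between classes. "Rose", "fell", "higher", "lower" and "called" refer to this test. CPM are UMIs per 1000000 of the library size scaled by its TMM factor, and log2 changes come from the fit. Catalytic pairs used log2 ratios with 0.5 added to each UMI count and an exact permutation test. Cell cycle genes came from Seurat 5.3.0. On simulated counts 91.2%, 95.2% and 95.4% of tested genes changed by 1.5 on the log2 scale were recovered in the time (12646 genes), cycling (10856) and 20S-high (11075) comparisons, and 3.57%, 10.9% and 1.01% of genes changed by 0.4. With changes of 1.5, false calls made up 3.80%, 6.25% and 8.87% of the calls in the same order. The shares in the cycling and 20S-high comparisons were thus above the threshold of 0.05. Alternatives included DESeq2 1.42.0, other filters, thinned cells and fits without each library.

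Named were the immunoproteasome members and catalytic subunits, the highest and lowest member of each role by level and up to 4 called genes per group and list. Members, lists and rules were chosen with earlier results of these data known, and the motifs after these and others had been counted. Gene positions are from GENCODE v44. Protein sequences were not used here. Some genes of the partner lists are not reported here.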

Additional observations from a re-analysis of the deposited data

Results flagged for a closer look

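The values of 5 members differed between time points in their 20S-high minus 20S-low difference, by the interaction term of class and time, as the change of that log2 difference from 1 to 4 dpi. PSMD5 differed by 1.081 ± 0.28 (adjusted p = 0.018) and PSME4 by 0.791 ± 0.20 (adjusted p = 0.018). PSME1 differed by -0.887 ± 0.22 (adjusted p = 0.014), PSMC4 by -0.65 ± 0.20 (adjusted p = 0.044) and PSME3 by -0.643 ± 0.20 (adjusted p = 0.044). In 20S-low cells PSMD5 was at 98.8, 70.6 and 82.0 CPM in libraries 6, 7 and 8 and at 51.7 and 29.6 CPM in libraries 10 and 11, and in 20S-high cells it was between 55.8 and 62.9 CPM in all 5, so that the libraries differed in the low class. PSME4 was at 154, 178 and 180 CPM in 20S-low cells of 1 dpi and at 94.7 and 117 CPM at 4 dpi, and between 106 and 132 CPM in 20S-high cells. Immediate early and heat shock genes and mitochondrial shares also moved with the class, and their part in these differences was not tested.

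PSMB8-AS1, the antisense RNA of PSMB8, was listed in 3 of the 5 tables with 9 UMIs in all, counted over all wells before any filter. It was no member and was not compared.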

How the results depend on the processing

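The 10 lower calls with time became 4 with cells thinned to 5000 UMIs, 6 with a mitochondrial maximum of 15% and 3 in low-cycling cells only, and were between 7 and 11 without 1 library. The 4 higher calls became 1 with DESeq2, 2 without a filter on low counts, 1 in low-cycling cells and 2 without a mitochondrial maximum, and were between 1 and 4 without 1 library. PSMD1 and PSMF1 kept their call in 15 of 15 alternatives and PSMD12 and PSMD14 in 14. With flow cell as a term 4 members were higher and 12 lower. The 5 higher calls in cycling cells became 0 with DESeq2, thinned cells or a mitochondrial maximum of 15%, and 1 without the library block, with 2 classes in place of 3, or with either time point alone, and were between 2 and 3 without 1 library. The 1 lower call became 0 in all these and without a filter or with a minimum of 3000 genes, and was between 0 and 1 without 1 library. In 20S-high cells 21 higher calls became 2 with thinned cells and 3 with the 2 libraries of 4 dpi alone, and were between 18 and 21 without 1 library. The members' median log2 difference was 0.51 in the main fit, 0.30 with thinned cells and 0.45 with 4 dpi libraries alone. The 0 lower calls became 2 with 1 dpi libraries alone and were between 0 and 1 without 1 library, 1 without library 10 or library 11. Differences in the pair ratios turned to -0.23 for PSMB8 to PSMB5 in low-cycling cells and to 0.15 for PSMB9 to PSMB6 with a mitochondrial maximum of 15%, and without 1 library were between 0.35 and 0.71, between -0.33 and -0.02 and, for PSMB10 to PSMB7, between 0.30 and 0.62. Members with changes near 0 turned sign. With time, PSMB5 was at 0.17 in low-cycling cells and PSMB7 between -0.29 and 0.031 without 1 library. PSMC5 was at -0.0055 without a filter on low counts, -0.0027 with a mitochondrial maximum of 15%, -0.0011 with flow cell as a term, -0.032 in low-cycling cells, -0.032 without a mitochondrial maximum and between -0.11 and 0.12 without 1 library. PSMD4 was at -0.024 with flow cell as a term and between -0.28 and 0.40 without 1 library. PSMA6 was at -0.0038 without a filter on low counts, -0.20 with thinned cells, -0.0078 with flow cell as a term, -0.059 in low-cycling cells, -0.025 without a mitochondrial maximum and between -0.094 and 0.12 without 1 library. In cycling cells, PSMB10 was at -0.060 and PSMB7 at -0.14 with a mitochondrial maximum of 15%, PSMB7 at -0.51 and PSMD2 at -0.047 with thinned cells, PSMB7 at -0.0029 without the library block and -0.11 at 1 dpi alone, and PSME1 at 0.047 at 4 dpi alone. Without 1 library PSME1 was between -0.14 and 0.041 and PSMB7 between -0.069 and 0.10. The cause of these shifts was not tested. Low counts limit PSMB8, PSMB9 and PSMD4. No paired analysis was possible because libraries of the 2 time points share no replicate numbers. The flow cells they share (libraries 6, 7 and 10, and libraries 8 and 11) entered as the term given above.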
